A study of Mus musculus with 8 samples.

Results

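The shortest miRNA reads bound to Argonaute (Ago) were examined in mouse brain. They were the reads of 15 to 18 nt that carry a miRNA name in the deposited table of small RNA sequences. Of the 47204 sequences in the table, 26201 carried a miRNA name, and 591 of these were short, spread over 261 of the 895 miRNA names. All 591 were exactly 18 nt long, since no sequence of 15, 16 or 17 nt was given a miRNA name. RNA came from cortex and hippocampus combined of mice with the 5XFAD transgene, which is driven by the neuronal Thy1 promoter and leads to amyloid deposition. The groups differed in Rubicon, a regulator of autophagy, with 1 intact copy in 5XFADtg Rubicon+/- mice (called het) and 0 in 5XFADtg Rubicon-/- mice (called ko), so the transgene was present in both groups and no mouse had 2 intact copies. Each genotype had 4 libraries, and each library came from its own mouse. The study's methods name female mice of 6 or 8 months on a mixed C57BL/6J and SJL background. Its results text gives 6 months and 3 het mice for this comparison, against the 4 het libraries here, and the labels give no age. Ago complexes were captured with a GW182 peptide, and per the labels RNA of 19 to 35 nt was cut from a gel, so reads of 18 nt lie 1 nt below the stated size range.

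Mature miRNAs are made from hairpins by Drosha and Dicer and are mostly a little over 20 nt long. Their seed, here the 6 bases at positions 2 to 7, selects the mRNAs that are silenced. Bases lost at the 3′ end leave the seed as it was, whereas bases lost at the 5′ end place a different stretch of the miRNA at the seed positions. In Ago the 5′ end of a guide is held in a pocket of the MID domain and the 3′ end in the PAZ domain.

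The most abundant short reads kept the 5′ end of the miRNA. The mature sequences of the following miRNAs are from RefSeq (GRCm38.p6), with the 18 nt covered by the most abundant short read in capitals. The first 7 are the names with the most short CPM among those with a RefSeq entry, and miR-144-3p is shown for the largest share of short reads.
let-7a-5p: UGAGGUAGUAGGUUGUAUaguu
let-7e-5p: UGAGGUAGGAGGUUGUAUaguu
let-7f-5p: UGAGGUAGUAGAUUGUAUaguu
let-7b-5p: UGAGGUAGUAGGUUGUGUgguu
miR-23a-3p: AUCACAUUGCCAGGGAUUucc
miR-26a-5p: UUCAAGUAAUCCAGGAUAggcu
miR-128-3p: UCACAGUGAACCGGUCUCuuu
miR-144-3p: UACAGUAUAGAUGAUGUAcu

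Other miRNAs gave short reads that had lost 5′ bases. The next set shows the leading short read of 5 of them in the same way, to be set against the first. miR-132-3p, miR-204-5p and miR-451a were added after their values were seen.
miR-9-5p: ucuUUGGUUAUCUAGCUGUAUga
miR-125b-5p: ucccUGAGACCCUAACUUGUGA
miR-132-3p: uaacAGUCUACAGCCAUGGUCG
miR-204-5p: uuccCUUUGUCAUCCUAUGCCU
miR-451a: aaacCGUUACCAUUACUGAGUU

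In this build let-7a-5p is at chr13:48538239-48538260 on the minus strand, in an exon of the long non-coding RNA 6720427I07Rik (GENCODE M21). let-7e-5p is at chr17:17830366-17830387 on the plus strand, in an intron of Spaca6. miR-23a-3p is at chr8:84208563-84208583 and miR-144-3p at chr11:78073047-78073066, both on the plus strand and both outside the other genes of the annotation. miR-204-5p is at chr19:22750610-22750631 on the plus strand in an intron of Trpm3, and miR-132-3p is at chr11:75173723-75173744 on the plus strand in an intron of the transcript 1700016P03Rik. miR-451a is at chr11:78073186-78073207 on the plus strand. miR-128-3p, miR-26a-5p, miR-9-5p and miR-125b-5p have 2 or 3 entries each in the RefSeq table.

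Libraries ranged from 509839 to 19878054 reads in the table, and the 2 libraries over 5000000 reads were both ko. These reads held 98.43% to 99.82% of the CPM of their library. Levels are in CPM, that is reads per 1000000 reads of the library. The short miRNA reads summed to 3091 ± 199.6 CPM (SD, n = 8), from 2790 to 3396. By number they were between 1535 and 58729 reads per library. The number of short sequences detected followed the depth, from 163 in the shallowest library to 544 in the deepest. Just outside the range, the reads of 19 nt with a miRNA name summed to 23171 ± 2164 CPM. On the other side, reads of 17 nt that matched a miRNA hairpin but carried no miRNA name summed to 1102 ± 126.1 CPM, those of 16 nt to 869 ± 160.8 CPM and those of 15 nt to 503 ± 69.6 CPM. At 18 nt itself, 334 further sequences matched a hairpin without a miRNA name and summed to 495 ± 64.8 CPM. At 19 nt such reads summed to 368 ± 79.0 CPM. How the naming was done is not given in the sources used here, so the values that follow are those of named 18 nt reads.

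As a share of all miRNA reads, 18 nt reads made up 0.322% ± 0.0206 (SD, n = 8). It was larger with each further base up to 22 nt, with 2.41% ± 0.222 at 19 nt, 8.47% ± 0.801 at 20 nt, 26.7% ± 1.10 at 21 nt and 41.1% ± 0.914 at 22 nt. The short share was 0.313%, 0.290%, 0.339% and 0.355% in the 4 het libraries. In the 4 ko libraries it was 0.330%, 0.304%, 0.331% and 0.315%, within the range of the het libraries. The 95% Wilson interval of a single library was between 0.00491 and 0.0313 percentage points wide. The genotype means were 0.324% ± 0.0284 for het and 0.320% ± 0.0129 for ko (n = 4 each). The difference of -0.00427 percentage points was not past the threshold (exact two-sided permutation test over 70 splits, p = 0.829, adjusted p = 0.829 over 3 measures). The smallest p that this design allows is 0.0286. The sign of the difference turned when het replicate 3, het replicate 4 or ko replicate 2 was left out (0.000508, 0.00598 and 0.00112 points), and when the median over miRNAs was taken (0.0444 points).

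Of the 591 short sequences, 509 belonged to miRNAs with a RefSeq entry, and these held 82.4% ± 3.14 of the short CPM. All 509 were an exact part of the mature sequence. Whether a name required an exact match is not given, so this and the shares that follow hold for named reads only. The reads that began at base 1 made up 68.0% ± 2.90 of the CPM of these sequences (172 sequences). Reads that ended at the last base made up 18.6% ± 2.44 (115 sequences), and reads that had lost bases at both ends 13.4% ± 0.722 (222 sequences). For mature miRNAs of 22 nt, the 5 possible windows of 18 nt were used unequally. Start 1 held 70.5% ± 2.79 of their short CPM and start 5, which keeps the 3′ end, 19.8% ± 2.53, while starts 2, 3 and 4 held 2.89% ± 0.489, 1.70% ± 0.448 and 5.15% ± 0.727. So of the 5 windows the 2 that keep an end of the mature miRNA held the most. For mature miRNAs of 23 nt, start 1 held 39.3% ± 10.2, start 4 held 18.7% ± 6.34 and start 6 held 20.3% ± 7.24. Among the 44 miRNAs with a RefSeq entry and at least 10 CPM of short reads, the leading short read kept the 5′ end in 31, the 3′ end in 10 and neither end in 3 (miR-9-5p, miR-125a-5p and miR-126a-3p). The count depends in part on names, since for 3 of the 10 (let-7c-5p, miR-103-3p and miR-129-2-3p) the table lists the 5′ read under a related miRNA. That read was above the leading read in let-7c-5p only.

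The last base of a short read was U in 52.6% ± 4.63 of the short CPM, and in 64.6% ± 4.94 of those that kept the 5′ end. Base 18 of the mature sequences, weighted by the CPM of each miRNA over all its reads, was U in 35.3% ± 1.88. The printed reads of let-7a-5p, let-7e-5p, let-7f-5p and let-7b-5p all end in U. The 5p arm gave 56.0% ± 4.03 of the short CPM and 54.2% ± 1.74 of all miRNA CPM.

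Short reads were spread unevenly over the miRNAs, and the same was not measured for all miRNA reads. The 3 most abundant names held 28.7% of the short CPM and the 12 most abundant 57.9%, whereas 69 names were seen in all 8 libraries. Over the 261 names, the short level and the total level of a miRNA had a Spearman correlation of 0.753, given as a description, since both come from the same libraries.

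miR-124-3p, a neuronal miRNA that represses genes of other cell types, led with 387 ± 128.4 CPM of short reads. It was at 303, 305, 396 and 658 CPM in the het libraries and at 301, 260.3, 449 and 419 CPM in the ko libraries. The highest value was that of het replicate 4, and the genotypes overlapped. Of its short reads 68.3% had the main seed of the miRNA, that is the seed with the highest CPM among its reads of 19 to 23 nt. A read without that seed, with the seed AGGCAC, stood at 106 CPM and was the second of its 3 short sequences.

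The let-7 family, whose members repress growth and cell cycle genes and rise as neurons mature, gave short reads from all 9 of its members, with 781 to 1052 CPM over the 8 libraries. let-7a-5p was at 328, 352, 358 and 278 CPM in het and at 416, 346, 340.3 and 376 CPM in ko. let-7e-5p was at 166, 105, 127 and 168 CPM in het and at 143, 103, 229 and 177 CPM in ko. Both overlapped between genotypes. let-7f-5p had 150.1 ± 35.9 CPM and let-7b-5p 116 ± 20.1 CPM. At the low end let-7i-5p had 11.1 ± 4.89 CPM and miR-98-5p 2.31 ± 1.75 CPM.

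The share of a let-7 member that was short ranged from 0.0728% ± 0.0122 for let-7c-5p to 1.496% ± 0.336 for let-7e-5p (SD, n = 8). The value of let-7c-5p has to be read with the sequences. The first 18 nt of let-7a-5p, printed in capitals above, are also the first 18 nt of let-7c-5p, and the table lists that read under let-7a-5p, at 326 ± 37.4 CPM. So no 5′ read of 18 nt was left under the name let-7c-5p, whose leading read of 30.5 ± 7.77 CPM starts at base 5:
let-7c-5p: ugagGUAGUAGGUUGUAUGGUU
Counted together, let-7a-5p and let-7c-5p had a short share of 0.491% ± 0.0538. The 5′ read of let-7e-5p is in no other RefSeq mature miRNA, and its total level was 10213 CPM, against 79078 CPM for let-7a-5p and let-7c-5p together. In all, 19 short sequences with 18.1% ± 1.59 of the short CPM were also part of the mature sequence, or of the most abundant read of 19 to 23 nt, of a miRNA of another name.

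miR-23a-3p, a miRNA listed here as a marker of oligodendrocytes, had 121 ± 20.1 CPM of short reads. Its values were 114, 92.2, 153 and 119 CPM in het and 146, 124, 116 and 104 CPM in ko, again with overlap. Its share of short reads was 1.90% ± 0.338, and 0.662% ± 0.119 when counted with miR-23b-3p, the leading read of which contains the same 18 nt. Likewise miR-27b-3p and miR-27a-3p together had 0.698% ± 0.183.

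Among other miRNAs typical of neurons, miR-128-3p had the highest total level of any miRNA here (68599 CPM) and 95.1 ± 28.7 CPM of short reads. It was at 29.0, 85.3, 117 and 109 CPM in het and at 108, 114, 94.5 and 105 CPM in ko, lowest in the shallowest library. Only 48.0% of its short CPM kept the 5′ end, and the read that starts at base 4 stood at 31.6 ± 14.9 CPM. miR-9-5p, which acts in neural progenitors and neurons, had 90.3 ± 14.8 CPM of short reads, of which 15.3% kept the 5′ end. It was at 79.2, 81.2, 74.2 and 92.0 CPM in het and at 117, 78.9, 103 and 97.0 CPM in ko. Its leading read starts at base 4 (37.1 ± 11.3 CPM), the second starts at base 6 (15.9 ± 7.47 CPM) and the 5′ read was the third (13.8 ± 5.48 CPM). miR-127-3p, from the imprinted Dlk1-Dio3 cluster and antisense to Rtl1, had 81.5 ± 50.4 CPM, from 26.4 to 160 CPM, the widest relative spread among the 12 most abundant names.

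miR-26a-5p had 110.0 ± 18.3 CPM of short reads and miR-139-5p, which lies in an intron of Pde2a, 67.2 ± 13.9 CPM, of which 64.2% and 94.3% kept the 5′ end. miR-125b-5p, abundant in neurons and glia, had 70.7 ± 29.4 CPM. Its 3 leading reads were of nearly equal level, with 24.8 ± 14.04 CPM for the read from base 5, 20.3 ± 14.1 CPM for the 5′ read and 19.2 ± 11.8 CPM for the read from base 4.

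Short reads of miR-132-3p and miR-204-5p were almost all from the 3′ end. miR-132-3p, which neuronal activity induces through CREB, had 66.7 ± 26.5 CPM of short reads, and 93.4% of them kept the 3′ end. The read from base 5 was at 94.6, 50.9, 79.98 and 76.6 CPM in het and at 44.9, 52.2, 83.8 and 15.7 CPM in ko, whereas the 5′ read was at 1.85 ± 2.12 CPM. miR-204-5p, abundant in the choroid plexus and the eye, had 42.5 ± 13.5 CPM of short reads, of which 99.5% kept the 3′ end. Its 5′ read was at 0.214 ± 0.329 CPM. miR-451a, the miRNA of red blood cells that is cut by Ago2 and not by Dicer, had 9.75 ± 6.96 CPM of short reads, and 94.1% of these kept the 3′ end.

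Among the 278 miRNAs with a mean total of at least 100 CPM, 221 had a short read and 57 had none. The median short share was 0.141%, 17 miRNAs were at 1% or more and 1 miRNA at 5% or more. That miRNA was miR-144-3p, which is made from the same cluster as miR-451a and acts in erythroid cells. Of its reads 12.9% ± 4.92 were 18 nt long, with 11.4%, 5.61%, 11.02% and 8.61% in het and 20.6%, 17.02%, 12% and 16.8% in ko. The ko libraries were all above the het libraries. This was so of 2 of the 278 miRNAs, or 0.719%, and 5, or 1.8%, did not overlap in either direction. The 278 include the 57 without a short read, which could not stand apart. On the log2 scale, the ratio of its short to its other reads was higher in ko by 1.01 ± 0.36 (SE), which did not pass the threshold in the fit over 278 miRNAs (limma, adjusted p = 0.286). The short level itself was at 57.9, 68.1, 26.0 and 35.3 CPM in het and at 35.1, 105.6, 21.9 and 26.5 CPM in ko, highest in ko replicate 2. In the limma fit the short reads differed by -0.18 ± 0.50 (SE) on the log2 scale, which was not past the threshold (adjusted p = 0.987). The value was -0.66 without ko replicate 2 and -0.83 without the 2 libraries over 5000000 reads. The sign turned without het replicate 2 (0.03) or ko replicate 3 (0.08), with edgeR (0.19) and with DESeq2 (0.17). Its reads of 19 to 23 nt had a log2 fold change of -1.19 (limma adjusted p = 0.663), or -0.74 without het replicate 2. With the replicate block in the fit these longer reads passed the threshold (limma adjusted p = 0.045). Its mature sequence has 20 bases, so the leading read lacks only its last 2, and 99.2% of its short CPM kept the 5′ end. Its total level was 438 CPM. Over the 6 miRNAs of at least 100 CPM with 20 bases, the pooled short share was 2.98%, and it was 0.226% over the 5 left without miR-144-3p. It was 0.256% for 41 miRNAs of 21 bases, 0.347% for 140 of 22 bases and 0.169% for 45 of 23 bases. The median share was 0.158% for the 6 miRNAs of 20 bases and 0.132%, 0.170% and 0.0927% for those of 21, 22 and 23 bases.

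After miR-144-3p the highest shares, beside those of miR-23a-3p and let-7e-5p given above, came from 5 miRNAs. miR-134-5p, a miRNA of dendrites from the Dlk1-Dio3 cluster, had 3.49% ± 4.78, from 0% in 2 libraries to 14.2% in ko replicate 4, and without that library its mean was 1.96%. miR-15b-5p, a repressor of cell cycle genes, had 2.65% ± 0.895 and ranged from 1.15% to 3.90%. miR-3099-3p had 2.41% ± 2.87, or 1.48% without het replicate 1. miR-378a-3p had 2.31% ± 1.08 and miR-434-5p 1.84% ± 1.44. Only miR-15b-5p and miR-378a-3p of these 5 had short reads in all 8 libraries.

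At the other end, the most abundant miRNAs without any short read were miR-411-5p, miR-200a-3p, let-7i-3p and miR-200b-3p. miR-411-5p had 46869 reads in all and 0 of 18 nt. let-7i-3p had 27217 reads, miR-200a-3p 15841 and miR-200b-3p 11053, each with 0 of 18 nt. Sequences with fewer than 8 reads over all libraries were left out of the table, so short reads below that number cannot be seen here, and no upper limit is given for these shares. Reads of 18 nt without a miRNA name are not counted either.

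The main seed was present in 67.9% ± 3.28 of the short CPM, from 64.4% to 74.2%. Among reads of 19 to 23 nt it was present in 93.2% ± 0.453, from 92.4% to 94.0%. Within a library the difference, short minus 19 to 23 nt, was -25.3 percentage points (SD 3.06). It is given as a description with no p, since the main seed was picked as the leading one of the reads of 19 to 23 nt, and an 18 nt part of a longer miRNA has lost bases at 1 end or both, so the direction was largely set beforehand. With the seed of the RefSeq mature sequence instead, an alternative added after the data were seen, the shares were 68.0% ± 2.90 and 93.3% ± 0.302. With the reads of 19 to 23 nt weighted to the miRNA mix of the short reads, their share was 93.4% ± 0.514. By length, the share was 89.8% ± 0.847 at 19 nt and 89.4% ± 1.21 at 20 nt, and the highest library at 18 nt (74.2%) lay below the lowest at 19 nt (88.6%). The genotypes did not differ past the threshold, with 69.1% ± 4.03 in het and 66.7% ± 2.26 in ko (difference -2.37 points, exact permutation test, p = 0.371, adjusted p = 0.557). The difference was -0.681 points without het replicate 4 and -3.96 points without het replicate 1.

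A seed moved by lost 5′ bases can score very differently in viability. The deposited 6mer seed viability comes from a screen outside this study, in which a small RNA of each seed was put into 3 mouse cell lines, and is the percentage of viable cells averaged over them. These brains played no part in it. For miR-125b-5p the 5′ read kept the seed CCCUGA (viability 79.4), whereas the read from base 5 has GAGACC (17.3). In miR-451a the read from base 5 has GUUACC (18.6) in place of AACCGU (58.3). The change went the other way in miR-9-5p, where the read from base 4 has UGGUUA (80.4) in place of CUUUGG (60.9). In miR-128-3p the read from base 4 has AGUGAA (76.7) in place of CACAGU (49.5). For let-7a-5p the read from base 5 has UAGUAG (84.3) in place of GAGGUA (50.3).

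Summed over all miRNAs, these shifts went both ways. The 389 short sequences without the main seed held 990 ± 107.3 CPM. Of these, 195 with 525 CPM had a lower viability than the main seed of their miRNA and 193 with 465 CPM a higher one. Their mean viability was 58.9 ± 1.27, while the main seeds of the same miRNAs had 60.7 ± 1.22. The 202 short sequences with the main seed held 2101 CPM and had a mean viability of 54.2 ± 0.823. All short reads together had a mean seed viability of 55.7 ± 0.789 and reads of 19 to 23 nt 56.1 ± 0.797. The difference of -0.386 (SD 1.27) did not pass the threshold (exact paired permutation test, p = 0.430). Its sign turned when miR-124-3p was left out, to 0.329. Between genotypes, short reads had a mean viability of 55.3 ± 0.936 in het and 56.1 ± 0.414 in ko (exact permutation test, p = 0.2, adjusted p = 0.557), and the difference of medians was -0.75.

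To ask which miRNAs differed in short reads between genotypes, every miRNA was split into reads of 18 nt, 19 to 23 nt and 24 nt or more, and all 662 features that averaged 10 CPM or more were fitted together with limma on log2(CPM + 1). The fit called 10 features, or 1.51%, all lower in ko, while DESeq2 on recovered reads called 16, of which 1 was higher (the reads of 19 to 23 nt of miR-211-5p). The count was 6 with edgeR, 20 with the replicate block and 4 to 14 when leaving out each library. None of the 50 short features was among the 10 (limma, smallest adjusted p = 0.663), nor among the calls of edgeR or DESeq2 on recovered reads. At an unadjusted p under 0.05 there was 1 short feature, or 2 with edgeR and 2 with DESeq2, while 6.65% of all features were below it in limma. Log2 fold changes of the short features, on the log2(CPM + 1) scale, had a median of -0.01, between -1.52 (miR-22-3p) and 0.88, and 24 were higher and 26 lower in ko. The median over all features was -0.07. The standard error of a short feature had a median of 0.48 on that scale, which limits what could be called.

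The 3 short features with the smallest p in each direction are given next. Of those lower in ko, miR-99a-5p was at 17.4, 15.1, 20.2 and 11.6 CPM in het and at 1.40, 6.73, 4.73 and 13.7 CPM in ko (log2 fold change -1.42 ± 0.62 SE, limma adjusted p = 0.663, and -0.69 with 10 CPM added in place of 1). 1 ko library lay within the het range, and the reads of 19 to 23 nt of miR-99a-5p had a log2 fold change of -1.12. With -0.87 in place of -1.42, its fold change was also smaller without the 2 deepest libraries. miR-22-3p averaged 15.9 ± 8.20 CPM over the het and 6.45 ± 5.46 CPM over the ko libraries. Its log2 fold change of -1.52 was -0.73 without ko replicate 4, -2.42 without the 2 deepest libraries and -0.66 with 10 CPM added. For miR-132-3p the averages were 80.9 ± 16.9 CPM (het) and 52.5 ± 28.6 CPM (ko), a log2 fold change of -0.80, or -0.34 without ko replicate 4. Of those higher in ko, short reads of miR-204-5p were at 38.6, 35.8, 23.3 and 32.3 CPM in het and at 59.5, 42.5, 44.3 and 63.7 CPM in ko. The genotypes did not overlap. The log2 fold change was 0.68 ± 0.33 SE, short of the threshold (limma adjusted p = 0.726). The same was so of let-7d-5p, with 45.7 ± 7.48 CPM in het and 70.4 ± 14.7 CPM in ko (0.60 ± 0.31 SE, limma adjusted p = 0.731). For reads of 19 to 23 nt the log2 fold change was -0.14 for miR-204-5p and 0.25 for let-7d-5p. These 2 were the only short features, of 50, whose genotypes did not overlap. Of all 662 features 27, or 4.08%, did not overlap in either direction, near the share among the short features, and 5, or 0.755%, were higher in every ko library, these 2 included. Whether short features stood apart more often was not tested. let-7b-5p had 103 ± 16.3 CPM in het and 129 ± 14.4 CPM in ko (0.34 ± 0.27 SE).

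The short fraction was then compared as log2 of short CPM against the other CPM of the same miRNA, with 1 CPM added to both, over 278 miRNAs. The fit called 4, or 1.44%, all higher in ko, namely miR-429-3p, miR-96-5p, miR-200a-3p and miR-182-5p. None of the 4 had a short read in any library, so their ratio holds only the added 1 CPM and the level of the miRNA. miR-429-3p, for example, had a mean total of 770 CPM over the het libraries and 48.5 CPM over the ko libraries, and miR-200a-3p 1860 and 155 CPM. So these calls carry no information on read length. No miRNA with a short read passed the threshold in this fit, while 13 of 221 were under an unadjusted p of 0.05, against 21 of all 278. Scarce short reads leave these ratios dependent on the added CPM as well. miR-136-5p, the first of the 13 by p, averaged 0.436 CPM of short reads, with totals of 3214 CPM in het and 967 CPM in ko. edgeR on the recovered short reads, with the total reads of each miRNA as offset, called 0 of 221, with 18 at an unadjusted p under 0.05. A fit limited to the 50 miRNAs with at least 10 CPM of short reads, added after the data were seen, called 0, with 1 at an unadjusted p under 0.05. That was miR-144-3p (limma adjusted p = 0.359). Of miRNAs lower in ko, the smallest p-values were those of miR-872-5p (log2 ratio change -1.72 ± 0.60 SE, limma adjusted p = 0.286), the shared name of let-7a-1-3p and let-7c-2-3p (-1.64 ± 0.63) and miR-543-3p (-1.27 ± 0.61). Their short reads averaged 3.25, 1.001 and 5.78 CPM, and the size of these changes moved with the CPM added. For miR-872-5p it was -4.18 with 0.1 CPM and -0.002 with 10 CPM, for the shared let-7 name -2.90 and -0.74, and for miR-543-3p -2.15 and -0.40. Leaving out 1 library also moved those of the shared let-7 name (-1.07 without het replicate 2) and miR-543-3p (-0.72 without ko replicate 4).

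By list, the 10 miRNAs typical of neurons all had short reads, 7 were tested as short features and 0 passed. Their median log2 fold change was 0.14. Their total level was 222670 to 325140 CPM. Of 9 let-7 members 8 were tested and 0 passed, with a median of 0.20 and 6 higher in ko. The miR-29 family, which represses collagen genes, had 3 of 3 tested and 0 passing, all lower in ko, with a median of -0.40. Reads of 19 to 23 nt of miR-29a-3p, miR-29b-3p and miR-29c-3p were lower too (-0.43, -0.68 and -0.53). The miR-30 family had 4 of 5 tested and 0 passing, all lower, with a median of -0.21. Reads of 19 to 23 nt of miR-30a-5p, miR-30b-5p, miR-30d-5p and miR-30e-5p had -0.21, 0.04, -0.27 and -0.47. In the miR-181, miR-125 and miR-26 families 2, 2 and 1 members were tested and 0 passed, with medians of 0.16, -0.33 and 0.21. The median over all 50 short features was -0.01.

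Of the miRNAs of other cells, all 3 listed for oligodendrocytes had short reads, and 2 were tested with 0 passing. Of 7 listed for microglia and blood leukocytes 5 had short reads, and miR-223-3p and miR-155-5p had none. Their summed short level was 9.49 to 46.3 CPM. The 2 endothelial miRNAs had 10.5 to 23.7 CPM together. For the erythroid list 23.6 to 113 CPM was found, with miR-486a-5p not listed under that name alone. The 7 epithelial miRNAs had 226 to 8555 CPM in all and no short read in any library. miR-122-5p of liver had none, at a total of 8.82 to 22.3 CPM, and 1 of the 3 muscle miRNAs listed had any. Of the Drosha-independent miR-320-3p, miR-484 and miR-877-5p, all 3 had short reads, with at most 8.93 CPM together.

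The 6 miRNAs that earlier results of these data had singled out as lower in ko were miR-200a-3p, miR-200b-3p, miR-429-3p, miR-182-5p, miR-183-5p and miR-96-5p. None had a short read. Together they had 41407 reads, of which 0 were of 18 nt, within the same limit of the table. By comparison 0.322% of all miRNA reads were short, and miR-411-5p, which is outside that group, had no short read in 46869 reads. The 57 miRNAs of at least 100 CPM without a short read included 5 of the 6.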

How the data were processed

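Small RNAs bound to Ago were measured in 8 brain libraries, 4 het and 4 ko, grouped by the sample titles. The authors trimmed the reads (Trim Galore is named in the submitters' processing notes), compiled them with their SPOROS pipeline, removed rare reads and matched the rest to lists of small RNAs. The deposited values are CPM, scaled by the authors to 1000000 reads per library. The deposited score of each sequence is the 6mer seed viability that the authors assigned to its seed, a mean over 3 mouse cell lines. The genome build, tool versions and matching settings were not given in the sources used here. No sequence had fewer than 8 reads in the 8 libraries together, and 29 of the short sequences had exactly 8. After scaling, a change in an abundant miRNA moves the CPM of all others.

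All values came out as whole reads (100% within 0.0006 CPM), which gave 509839 to 19878054 reads per library in the table. On the CPM scale 3 reads were worth 0.151 to 5.79 CPM. Wilson intervals (95%) cover counting error only. Per-library measures were compared by exact two-sided permutation tests with Benjamini-Hochberg adjustment. Features were tested with limma 3.58.1 (trend and robust, R 4.3.3) on log2(CPM + 1), at an adjusted p of 0.05, with edgeR 4.0.16 and DESeq2 1.42.0 on recovered reads as alternatives. Other steps used Python 3.11.15, pandas 2.3.3, numpy 2.4.6 and scipy 1.17.1. The fits were also run on simulated data, but the outcome is not given here and nothing is drawn from it. Mature sequences were matched by name to RefSeq, and 509 of 591 short sequences had an entry.

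The miRNAs named were the 12 with the most short CPM, the 8 with the highest and 4 with the lowest short share at 100 CPM or more, up to 5 called (otherwise 3) per direction and fit, and the fixed lists. let-7c-5p, miR-451a and miR-125a-5p are named from lists or counts, and miR-211-5p was named after its value was seen. The members and lists were chosen with earlier results of these data known. Libraries of the same replicate number showed no pairing in their short reads (correlations of deviations over 50 miRNAs between -0.056 and 0.0902). Short levels are noisy, so these correlations cannot settle whether the mice were paired. Alternatives were pseudocounts, filters, centring, other tools, the replicate block, subsets of reads and leaving out libraries.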

Additional observations from a re-analysis of the deposited data

Results flagged for a closer look

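The short share of miR-134-5p in ko replicate 4 was 14.2%, far from the other 3 ko libraries, of which the next was at 2.41%. The gap was 0.83 of the range of the group, just past the critical value of Dixon's test. It was the 1 value so marked in 46 groups of 4 libraries, and chance alone marks about 1 group in 20.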

How the results depend on the processing

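The difference in main-seed share between short reads and reads of 19 to 23 nt was -26.1 to -24.8 percentage points when leaving out each library, -24.9 without the 2 libraries over 5000000 reads and -25.3 with the RefSeq seed (added after seeing the data). Its direction was largely set by how the main seed was picked, so no stability is read from it. The count of short features called stayed at 0 under all 18 alternatives. The genotype difference in short share turned to 0.0444 points with the median over miRNAs and was -0.0155 to 0.00598 points when leaving out each library, and the viability difference between genotypes turned to -0.75 with medians and was 0.45 to 1.20 when leaving out each library. The genotype difference in main-seed share was -3.96 to -0.681 points when leaving out each library. The viability difference between lengths turned to 0.329 without miR-124-3p and was -0.605 to -0.0714 when leaving out each library. None of these genotype and viability differences was past the threshold, and the cause was not tested. The log2 fold change of short miR-144-3p reads turned to 0.189 with edgeR and 0.171 with DESeq2. It was -0.658 to 0.081 when leaving out each library and -0.834 without the 2 deepest libraries. Over all length classes, 10 features were called in the main test, 20 with the replicate block, 16 by DESeq2, 6 by edgeR, 5 with a mean of at least 100 CPM, 4 without the 2 deepest libraries and 4 to 14 when leaving out each library (4 without het replicate 4 or ko replicate 2, 5 without het replicate 2 or ko replicate 1, 6 without het replicate 1). With the replicate block the short share gave p = 0.875, the main-seed share p = 0.25 and viability p = 0.25 (exact paired permutation tests), and among the named results it changed 1 other call, that of the reads of 19 to 23 nt of miR-144-3p (limma adjusted p = 0.045 in place of 0.663).

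Of the short fraction, 4 miRNAs were called, 2 with a pseudocount of 0.1, 1 with a mean total of at least 1000 CPM, 0 by edgeR with an offset, 0 without the 2 deepest libraries, 0 among miRNAs with at least 10 CPM in short reads (added after seeing the data) and 3 to 5 when leaving out each library. Of miRNAs with a short read, 0 to 1 were called when leaving out a library, namely miR-107-3p without het replicate 3, miR-1983 without het replicate 4 and miR-101b-3p without ko replicate 4, in place of 0. The planned limit of 15 to 17 nt gave no value, since no such read carries a miRNA name. Depth limits the scarce members most, as 1 read was worth 1.93 CPM in the shallowest library and 0.0502 CPM in the deepest.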
